A study of Mus musculus with 3 samples.

Results

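MiR-124 is a microRNA (miRNA), a short RNA that pairs with messenger RNAs and lowers their output. Its hairpin precursor is cut into a 5p arm and a 3p arm, here mmu-miR-124-5p and mmu-miR-124-3p, and both were followed in retinas of C57BL/6 mice aged 1, 7 and 17 days (P1, P7 and P17). The 2 arms are 2 of the 1915 mature miRNAs counted in each library, and they were chosen by their reads, their level and their 5p to 3p ratio across the 3 ages, so that these values are a description and carry no test. Each age was sequenced as 1 small RNA library made from the pooled retinas of 5 eyes. The labels name no genetic change and no treatment. With 1 pooled library per age the spread between animals was not measured, so the ages were compared without replicates.

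MiR-124 is known as the typical miRNA of neurons. It is switched on as progenitors become neurons, where it represses genes such as Ptbp1, a splicing regulator of non-neuronal cells, and it is found in the neurons of the retina, photoreceptors included. In most hairpins one arm, the guide, is kept in an Argonaute protein and the other, the passenger, is degraded, and the 3p arm is the guide of miR-124 in textbook accounts. An age at which the 3p arm gives few more reads than the 5p arm is therefore of interest in itself.

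The mouse genome holds 3 hairpins that give miR-124, and the positions below are those of GRCm38, the same build as the mm10 genome of the study, in the GENCODE annotation. Mir124a-1 lies at chr14:64590657-64590741 on the plus strand, inside exon 4 of transcript 201 of Mir124a-1hg (also named Rncr3), a gene of a long non-coding RNA. Mir124a-2 lies at chr3:17795662-17795770 on the plus strand within Mir124-2hg, a gene of the same type, and its end overlaps exon 1 of transcript 201, which starts at 17795744. Mir124a-3 lies at chr2:180894040-180894107 on the plus strand, and its last bases overlap the first exon of Gm27032, again a non-coding gene, which starts at 180894105. The counts are given per mature miRNA, so the share of each of the 3 loci is not known.

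MiR-9 and miR-129, also known as neuronal miRNAs, were the hairpins compared with miR-124. Both are known to be made at several loci, and their mature sequences from RefSeq (GRCm38.p6) are shown to identify the arms. The comparison of arms used read counts by name and not the sequences. Capitals mark the seed, bases 2 to 8, which pairs with the target. MiR-124-3p, miR-124-5p and miR-129-1-3p are given by name only.
miR-9-5p: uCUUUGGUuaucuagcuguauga
miR-9-3p: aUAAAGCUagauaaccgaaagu
miR-129-5p: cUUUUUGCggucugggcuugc
miR-129-2-3p: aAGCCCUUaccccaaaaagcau
The seeds of the 5p and the 3p arm shown differ within miR-9 and within Mir129-2. MiR-9-5p and miR-9-3p are encoded on the plus strand in Mir9-1 (chr3:88215613-88215635 and chr3:88215652-88215673), in Mir9-3 (chr7:79505279-79505301 and chr7:79505318-79505339) and in Mir9-2 (chr13:83738821-83738843 and chr13:83738858-83738879). MiR-129-5p lies at chr2:94241419-94241439 on the minus strand in Mir129-2, beside miR-129-2-3p at chr2:94241376-94241397, and again at chr6:29022624-29022644 on the plus strand in Mir129-1.

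The libraries held between 11426320 and 12759995 miRNA reads. Levels are given as RPM, which scales the miRNA reads of each library to the same total, and the smallest level this depth can show, set at 3 reads, was 0.235 to 0.263 RPM. Intervals are 95% intervals, cover only counting error and treat the reads as independent. Reads copied by PCR and not tagged by molecule are not independent, so the intervals can be too narrow even for counting error. Photoreceptor miRNAs (miR-183-5p, miR-96-5p and miR-182-5p) were present in each library, and summed to 77854 RPM in the P1 library, 304394 RPM in the P7 library and 301141 RPM in the P17 library.

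By RPM, miR-124-3p was much higher at P17 than at the earlier ages, while miR-124-5p stayed near its level. The reads of miR-124-3p numbered 17642 in the P1 library, 26219 in the P7 library and 148978 in the P17 library. Its P1 level was 1544 RPM (95% Wilson interval 1521 to 1567), its P7 level 2055 RPM (2030 to 2080) and its P17 level 12777 RPM (12713 to 12842). The P17 value stood far above the other two, which lay close together. In order of reads miR-124-3p moved from place 68 (P1) to place 45 (P7) and place 18 (P17). In the oldest retinas it took 1.28% of all miRNA reads, between let-7i-5p with 15611 RPM and miR-129-5p with 10438 RPM.

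The reads of miR-124-5p numbered 13769, 18881 and 16515 in the same order of age. Its P1 level was 1205 RPM (1185 to 1225), its P7 level 1480 RPM (1459 to 1501) and its P17 level 1416 RPM (1395 to 1438). The P7 value was the highest and the P1 value the lowest, and the whole range was small beside that of the 3p arm. Its place in order of reads went from 87 to 51 and then 54. Both arms together made up 2749, 3534 and 14194 RPM, so by RPM the gain of the hairpin in the P17 library was mostly a gain of its 3p arm.

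**Figure D1:**
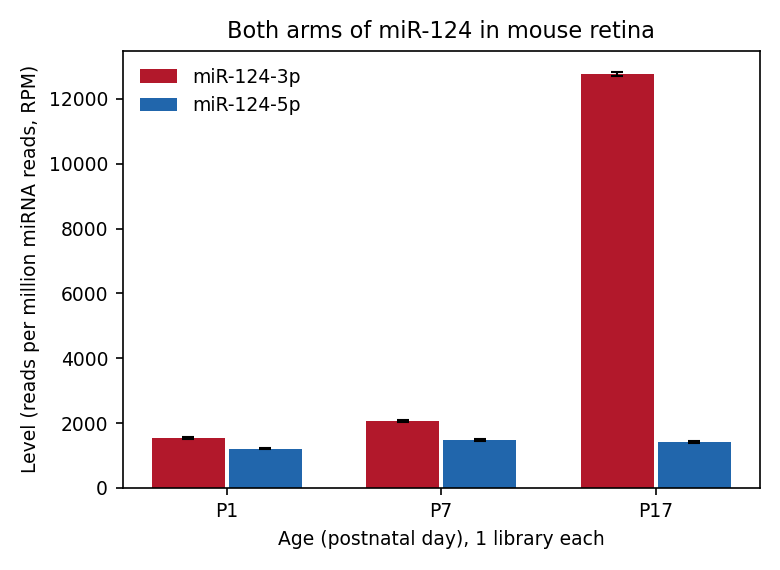
Bars show the level of miR-124-3p (red) and miR-124-5p (blue) in RPM in the single library of each age, and error bars are 95% Wilson intervals of counting error. The 3p arm reached 12777 RPM at P17 against 1544 and 2055 RPM before, while the 5p arm lay between 1205 and 1480 RPM.

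The rise of miR-124-3p fell mostly between P7 and P17. Without a pseudocount it amounted to 1.33-fold up to P7 (exact binomial interval 1.31 to 1.36), to 6.22-fold after P7 (6.14 to 6.30) and to 8.28-fold over the whole period (8.15 to 8.41). MiR-124-5p was 1.23-fold higher at P7 than at P1 (1.20 to 1.26), was at 0.957 of its P7 level at P17 (0.937 to 0.977) and was 1.18-fold higher at P17 than at P1 (1.15 to 1.20). Both arms thus rose by a similar amount before P7 and parted after it.

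On the log2(RPM + 1) scale, where changes of rare miRNAs come out too small, miR-124-3p changed by 0.41 from P1 to P7, 2.64 from P7 to P17 and 3.05 from P1 to P17. It was over 2-fold higher in the last 2 of these comparisons. Among the 648 miRNAs whose mean level reached 1 RPM, 3.09% were over 2-fold higher from P1 to P7, 14% from P7 to P17 and 10.5% from P1 to P17, and the rise of miR-124-3p was in place 46, 11 and 10 of them. Since the pair was chosen on these values, nothing is read from the places. MiR-124-5p changed by 0.30, -0.063 and 0.23, and it was not over 2-fold higher or lower in any of the 3.

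RPM is a share of the miRNA reads, and the median change of the 648 miRNAs was -0.87 from P1 to P7 and -0.91 from P1 to P17, against -0.052 from P7 to P17. Relative to that median miR-124-3p changed by 1.28, 3.96 and 2.69 in the same order, and miR-124-5p by 1.16, 1.14 and -0.011. With median-of-ratios size factors, under which the typical miRNA lies near 0, miR-124-5p was over 2-fold higher at P7 and at P17 than at P1, with log2 changes of 1.26 and 1.28, and with TMM factors they were 1.28 and 1.25. Its change from P7 to P17 was 0.022 with median-of-ratios size factors, the opposite sign. The change of miR-124-3p from P1 to P7 was also over 2-fold under these scalings, at 1.37 and 1.40. Many other miRNAs passed the same mark. Of the 648 miRNAs, 62 were over 2-fold higher from P1 to P7 by median of ratios, and 63 by TMM. From P1 to P17 it was 164 (25.3%) by median of ratios, and 163 by TMM. Thus under both scalings miR-124-3p rose in each interval and by more after P7 than before it, whereas a 2-fold rise of either arm before P7, and of miR-124-5p over the whole period, was seen with these factors and not with RPM.

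The ratio of the 5p to the 3p reads lies within a library and does not depend on its scaling. For miR-124 it was 0.780 at P1 (exact interval 0.763 to 0.798), 0.720 at P7 (0.707 to 0.734) and 0.111 at P17 (0.109 to 0.113). The arms were thus near balance at P1 and P7, where the 3p arm gave 56.2% and 58.1% of the reads of the hairpin, and at P17 it gave 90.0%. How well each arm was ligated and amplified was not measured, so these are ratios of reads and not of molecules. On the log2 scale the ratio changed by -0.12 before P7 (exact conditional interval -0.16 to -0.074), by -2.70 after P7 (-2.74 to -2.66) and by -2.82 over the whole period (-2.86 to -2.78).

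Most hairpins of these libraries were further from balance than miR-124 was at P1 and P7. Of the hairpins with both arms at a mean of at least 1 RPM under matching names, 12 of 190 had arms closer to 1 to 1 than miR-124 at P1, 11 of 191 at P7 and 91 of 191 at P17. The median fold between the arms of a hairpin was 10.8, 10.9 and 10.2 from the youngest to the oldest library. The 9.02-fold excess of the 3p arm of miR-124 at P17 was close to that median, and its 1.28-fold excess at P1 was not. As miR-124 was chosen on its arm ratio, these counts are a description only.

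From P7 to P17 the change of the miR-124 arm ratio was the lowest of 191 hairpins, whose median was 0 and whose middle 90% lay between -1.50 and 1.39. The next was miR-20a, with -2.65, whose 3p arm had 140 reads at P7 and 39 at P17. The 5p to 3p ratio was over 2-fold lower in 13.6% of the hairpins from P7 to P17 and in 17.4% from P1 to P17, miR-124 among them in both. From P1 to P17 miR-124 was in place 4 of 190, between miR-503 (-2.84) and miR-17 (-2.78). For those hairpins the ratio fell along with the reads of both arms, since miR-503-5p went from 1389 reads to 43 and miR-17-5p from 26291 to 460. Both arms of miR-124 gave more reads at P17 than at P1, although miR-124-5p fell from 18881 reads at P7 to 16515 at P17. A falling ratio with rising arms was not particular to miR-124. The ratio of miR-211 changed by -2.34 from P7 to P17, while miR-211-5p and miR-211-3p rose, with log2(RPM + 1) changes of 4.36 and 5.35. From P1 to P7 the change of miR-124 was in place 63 of 190. Since miR-124 was chosen on this ratio, nothing is read from its places among the hairpins.

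**Figure D2:**
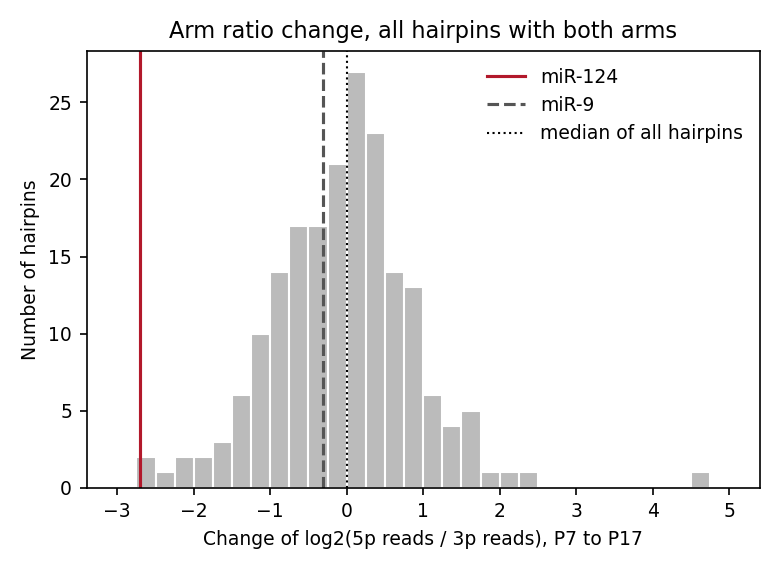
The histogram counts the 191 hairpins by the change of log2(5p reads / 3p reads) from P7 to P17. The red line marks miR-124 at -2.70, at the low end, the dashed line miR-9 at -0.31 and the dotted line the median of the hairpins at 0.

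MiR-129-5p rose about as much as miR-124-3p, while the ratio of the miR-129 arms changed far less than that of miR-124. Its reads numbered 14377, 28778 and 121703 from the youngest to the oldest library, or 1258, 2255 and 10438 RPM, a rise of 8.30-fold from P1 to P17 (8.15 to 8.44). MiR-129-1-3p and miR-129-2-3p together had 162, 416 and 1550 reads. The 5p arm of miR-129 was therefore the abundant one at each age. The log2 change of miR-124-3p relative to miR-129-5p from P1 to P17 was -0.0035 (95% interval -0.037 to 0.030), with -0.43 (-0.47 to -0.39) before P7 and 0.43 (0.40 to 0.45) after.

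The ratio of the 5p to the 3p reads of miR-129 was 88.7 at P1 (76.0 to 104), 69.2 at P7 (62.8 to 76.4) and 78.5 at P17 (74.7 to 82.6). It changed by 0.18 on the log2 scale from P7 to P17 (0.022 to 0.34), and the change of miR-124 minus that of miR-129 was -2.88 (-3.04 to -2.72). Since miR-129-5p is made at both loci, its ratio is that of the sum of the loci.

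MiR-9-5p had more reads than miR-124-3p at each age and was lower at P17 than at P1 by RPM, with a log2 change of -0.96, but nearly level with median-of-ratios size factors (0.083). Its reads numbered 1648346, 1604724 and 862942, or 144259, 125762 and 74011 RPM, and miR-9-3p had 71533, 73082 and 48781 reads. The reads of miR-9-5p were 93.4 times those of miR-124-3p in the P1 library, 61.2 times in the P7 library and 5.79 times in the P17 library. Within a library miR-124-3p thus gained on miR-9-5p by 4.01 on the log2 scale from P1 to P17 (95% interval 3.99 to 4.03), of which 3.40 (3.38 to 3.42) came after P7. The ratio of the 5p to the 3p reads of miR-9 was 23.0 at P1 (22.9 to 23.2), 22.0 at P7 (21.8 to 22.1) and 17.7 at P17 (17.5 to 17.9). Its change from P7 to P17 was -0.31 (-0.33 to -0.29), and the change of miR-124 minus that of miR-9 was -2.39 (-2.43 to -2.35). From P1 to P7 the difference was -0.046 (-0.091 to -0.0018). The difference thus lay almost wholly after P7, between these libraries.

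**Figure D3:**
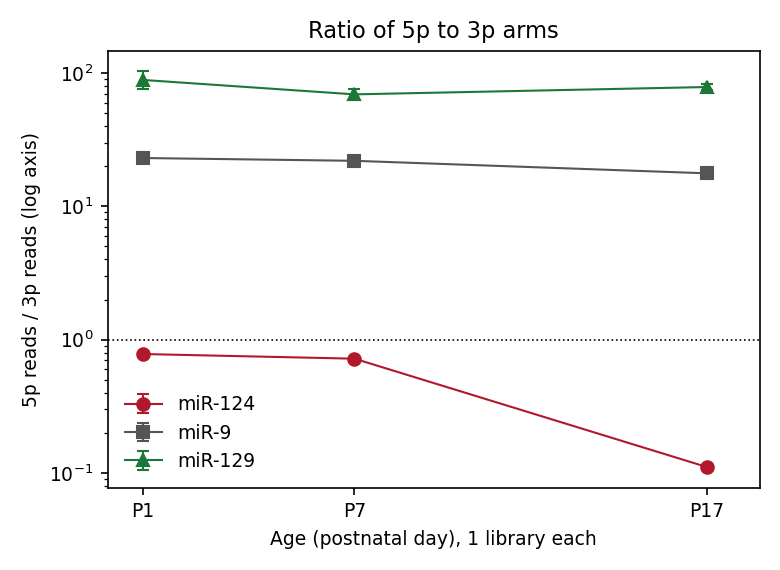
Points show the 5p reads divided by the 3p reads on a log axis for miR-124 (circles), miR-9 (squares) and miR-129 (triangles, both 3p forms summed) against age, with 95% exact intervals of counting error and a dotted line at equal reads. MiR-124 went from 0.780 and 0.720 to 0.111, whereas miR-9 stayed between 17.7 and 23.0 and miR-129 between 69.2 and 88.7.

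The miRNAs nearest to each arm in pattern were taken by the distance between their changes of log2(RPM + 1) over the 2 intervals, among 200 other miRNAs whose mean level reached 100 RPM, over 3 libraries. They share these libraries and their scaling, and the distance is a description. Nearest to miR-124-3p was miR-184-3p (distance 0.43), a miRNA known from the lens and cornea, with 1151, 1519 and 6633 reads from P1 to P17. It was followed by miR-129-5p (0.60), miR-143-3p (0.84), which is known from mural cells of vessels, miR-190b-5p (0.94) and miR-22-3p (1.11). MiR-124-5p was in place 75 in nearness to miR-124-3p, at a distance of 2.70.

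Nearest to miR-124-5p were miR-101a-3p (0.20) and miR-101c (0.21), followed by miR-181b-5p (0.38), miR-30d-5p (0.48) and miR-30c-5p (0.48). By RPM their log2 changes from P1 to P17 lay between 0.016 and 0.31, and with median-of-ratios size factors between 1.06 and 1.36. The mature sequences of miR-101a-3p (chr4:101346957-101346977, minus strand, Mir101a) and miR-101c (chr9:3038680-3038698, minus strand, Mir101c) are shown because the shorter lies whole within the longer, from base 2 on, so the counting could assign the same reads to both.
miR-101a-3p: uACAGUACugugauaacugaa
miR-101c: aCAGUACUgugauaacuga
Their reads were 23093 and 23412 at P1, 29518 and 29891 at P7, and 29199 and 29694 at P17, so they may count as 1 neighbour.

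**Figure D4:**
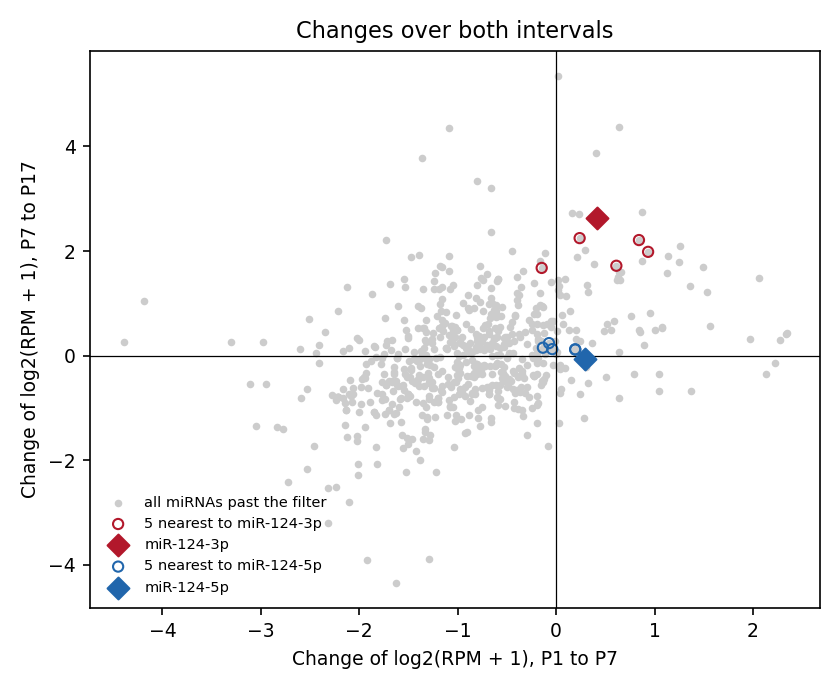
Each grey point is 1 of the 648 miRNAs, with its change of log2(RPM + 1) from P1 to P7 on the horizontal and from P7 to P17 on the vertical axis. Diamonds mark miR-124-3p (0.41 and 2.64) and miR-124-5p (0.30 and -0.063), and open circles their 5 nearest miRNAs by distance.

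A list of 10 other miRNAs known from neurons did not move as a whole with miR-124-3p. From P1 to P17, 3 of the 10 were over 2-fold higher (miR-129-5p, miR-132-3p and miR-212-3p) and 3 over 2-fold lower (miR-128-3p, miR-153-3p and miR-218-5p), where 10.5% of all miRNAs were higher and 46.8% lower. Their median log2 change was 0.36, against -0.91 for all miRNAs. By RPM, miR-9-5p had the highest mean level (-0.96), miR-129-5p the largest rise (3.05), miR-218-5p the largest fall (-1.86) and miR-138-5p the value nearest to 0 (0.31). With median-of-ratios size factors these changes were 0.083, 4.10, -0.82 and 1.35, so that miR-138-5p was over 2-fold higher and miR-9-5p had the value nearest to 0. MiR-132-3p, an activity-regulated miRNA, changed by 2.13, and its relative miR-212-3p by 1.67 from 10 reads at P1. With median-of-ratios size factors 6 of the 10 were over 2-fold higher and 0 lower, where 25.3% of all miRNAs were higher and 23.8% lower.

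Markers of other cell types also changed between these libraries. The summed level of 5 miRNAs of dividing progenitors (miR-17-5p, miR-20a-5p, miR-106b-5p, miR-25-3p and miR-92a-3p) was 32922, 12564 and 4307 RPM from P1 to P17, and 5 of 5 were over 2-fold lower at P17 than at P1 (46.8% of all miRNAs), or 4 of 5 with median-of-ratios size factors (23.8% of all miRNAs). The endothelial arms miR-126a-3p and miR-126a-5p together went from 1261 to 3643 and 8530 RPM, and the mural cell miRNAs miR-143-3p and miR-145a-5p from 195 to 376.3 and 1492 RPM. MiR-204-5p and miR-211-5p, known from the retinal pigment epithelium, summed to 15211, 7226 and 14334 RPM. Of these, miR-204-5p gave 14661, 6967 and 9019 RPM, and miR-211-5p gave 549.7, 258.6 and 5315 RPM. Their log2 changes from P1 to P7 were -1.07 and -1.08, where the median of all miRNAs was -0.87. From P1 to P17 only miR-211-5p was over 2-fold higher, by RPM (10.5% of all miRNAs) and by median of ratios (25.3% of all miRNAs). Lower sums were found for 3 miRNAs of lens and ocular surface (117, 121 and 572 RPM, of which miR-184-3p gave 569 RPM at P17). By RPM the other members of that list fell from P1 to P17, miR-205-5p from 2.71 to 0.69 and miR-200b-3p from 13.22 to 2.83. The 4 miRNAs of leukocytes and microglia summed to 13.6, 17.7 and 35.9 RPM, of which miR-150-5p gave 0.53 at P1 and 17.75 at P17. MiR-142a-3p went from 6.91 to 8.49 RPM, miR-142a-5p from 5.95 to 9.01 RPM, and miR-223-3p had 2 and 7 reads at these ages. Sums for 3 miRNAs of erythroid cells were 161, 116 and 157 RPM, and for 3 of muscle 132, 90.0 and 240.1 RPM. Each of these markers had reads in at least 1 library. The part of these cell types in the levels of miR-124 was not tested. In whole retina, fewer cells of a type and less RNA per cell cannot be told apart, and neither can age and the preparation of the single library of each age.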

How the data were processed

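Small RNA libraries of mouse retina at P1, P7 and P17 (1 per age, retinas of 5 eyes pooled) were grouped by the age in the labels. According to the methods of the study, the authors trimmed 50-nt reads and aligned them to mm10 with HISAT2, whereas the processing notes of the submitters name FastQC and BWA. The miRNA annotation, the counting rule and the treatment of reads that match several loci are not given in the sources used here. Some entries, such as miR-199a-3p and miR-199b-3p, have the same mean level (222.9 RPM) and the same changes. Reads may thus be counted for more than 1 entry, and the shares of all miRNAs, the medians and the library totals include such entries. The authors deposited read counts of 1915 mature miRNAs, and the deposited RPM values equal the count over the sum of counts to within 0.0192 RPM. The depth was 11426320 to 12759995 counts per library.

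Log2(RPM + 1), the filter of a mean of at least 1 RPM (648 miRNAs), the 2-fold criterion, exact binomial and conditional intervals, and arm ratios of raw counts were computed here, without a pseudocount for ratios. The study assessed differences with DEseq, and no test was applied here, since each age has 1 library. Differences between hairpins, and of miR-124-3p relative to another miRNA, have normal-approximation intervals of counting error. The arms, lists and comparisons were chosen with earlier results of these data known. The miRNAs named were the 2 arms, the 5 nearest in pattern to each, neighbours in rank and in arm ratio change, miR-9, miR-129, 4 examples of the neuronal list (miR-132-3p and miR-212-3p were added after their values were seen) and the marker lists. Sharing of the miR-124 seed was not analysed here. RefSeq gave sequences for 11 of 16 miRNAs looked up. Alternatives were pseudocounts, filters, median-of-ratios size factors (1.50, 0.862 and 0.743), TMM factors (1.59, 0.801 and 0.785) and reduced library totals. The 2-fold calls, the intervals of level changes and the median-of-ratios size factors were tested on simulated counts with sampling error only. Simulated rises and falls were equally likely and spared the most abundant miRNAs, unlike the changes between these libraries. The simulation therefore does not show how well the size factors hold here. The arm ratios, the nearest patterns and the TMM factors were not tested in this way. TMM factors came from edgeR 4.0.16 in R 4.3.3. All else used scipy 1.17.1, pandas 2.3.3, numpy 2.4.6 and matplotlib 3.10.9 under Python 3.11.15.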

Additional observations from a re-analysis of the deposited data

How the results depend on the processing

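The arm ratio changes of miR-124 did not move beyond counting error with a pseudocount of 1 RPM or of 0.5 reads, nor did the changes of either arm with any pseudocount tried or with the 2 arms left out of the total. The scaling moved the levels, and the cause was not tested. For the steps P1 to P7, P7 to P17 and P1 to P17, miR-124-3p changed by 1.37, 2.72 and 4.09 with size factors from the median of ratios, 1.40, 2.66 and 4.06 with TMM factors and 1.04, 2.39 and 3.43 with the top 10 miRNAs of each library (13 in all) left out of the total, against 0.41, 2.64 and 3.05. MiR-124-5p changed by 1.26, 0.022 (opposite sign) and 1.28, by 1.28, -0.035 and 1.25, and by 0.92, -0.31 and 0.61, against 0.30, -0.063 and 0.23. With the mature forms of the miR-183 cluster left out of the total, the changes from P1 to P7 and from P1 to P17 were 0.82 and 3.45 for miR-124-3p and 0.70 and 0.63 for miR-124-5p.

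The numbers over 2-fold higher and lower depended on the scaling too. From P1 to P7 they were 20 and 290 with RPM, 62 and 71 by median of ratios, and 63 and 68 by TMM. From P1 to P17 they were 68 and 303, 164 and 154, and 163 and 157. The arm ratio change of miR-124 from P1 to P17 was at percentile 2.11 of the hairpins, 3.77 of 106 with both arms at a mean of at least 10 RPM and 1.82 of 165 with at least 10 reads per arm in every library. Nothing is read from these percentiles, since miR-124 was chosen on this ratio. The numbers over 2-fold higher or lower from P7 to P17, and those under other filters, stayed within 1.5 times. As an alternative that was chosen after seeing the values, the other neuronal miRNAs and the nearest miRNAs were rescaled from P1 to P17: miR-9-5p turned from -0.96 to 0.083 (median of ratios) and 0.054 (TMM), and the others kept their sign. Depth limits the 3p arms of miR-129, with 162 reads at P1, more than miR-124. No paired analysis was possible because a single pooled library stands for an age.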
